A study of Homo sapiens with 6 samples.

Results

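Tropomyosins and the actin-binding proteins of contractile filaments were followed in K1, a cell line established from a papillary thyroid carcinoma. The set held 10 genes of the 20522 genes and loci listed in each library, namely the 4 tropomyosin genes (TPM1, TPM2, TPM3 and TPM4), ACTN1, ACTN4, MYL9, CALD1, TAGLN and CNN1, and members were found by their gene symbol. TPM4 was picked because it had the smallest p value of all genes between the groups, lower in si-NEAT1_2, so its values are a description and no test is given for it. The other members were chosen for their function, with earlier results of these data known.

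The 6 mRNA-seq libraries all came from K1 cells. In 3 of them (NC) the cells had received a negative control siRNA, and in the other 3 (si-NEAT1_2) an siRNA against NEAT1_2, the long transcript of the NEAT1 gene and the scaffold of nuclear paraspeckles. The siRNAs were delivered by transient lipid transfection, a single siRNA sequence was used against NEAT1_2, and neither a dose nor a time after transfection is in the labels. How far the siRNA lowered its target in these libraries is not known here, because NEAT1 itself was not analysed, and libraries are grouped as labelled. The labels do not say whether libraries of a group came from separate cultures, so p values measure the spread between these libraries, which may be technical. A further table with 1 value per group, without replicates, is called the group table.

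Tropomyosins are coiled-coil dimers that lie end to end along the actin filament and set which myosins and other proteins can reach it. In cells outside muscle, different tropomyosin isoforms mark different actin filaments, among them the contractile stress fibres, which α-actinins cross-link and non-muscle myosin II pulls on. Many of these genes are targets of serum response factor (SRF), which binds a DNA element called the CArG box and is switched on through its co-activators of the MRTF family when free actin monomers run low.

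Sequences of the promoters and transcripts are shown first, because they give the members features that the selection by values did not use. RefSeq promoter windows of GRCh38.p14 (250 bases before to 50 after a transcription start) were given for 8 of the 10 members, in 19 windows. MYL9 and TAGLN are named only. A CArG box (a pair of C, 6 bases each A or T, and a pair of G, a pattern that reads the same on both strands) was found in 2 of the 19 windows (10.5%), against 1.29% of 35116 windows of all genes. The TPM4 box lies 173 bases before 1 of its 3 starts and the ACTN1 box 171 bases before 1 of its 4 starts. They are printed 5′ to 3′ with the box in capitals, TPM4 at chr19:16067355-16067384 on the plus strand and ACTN1 at chr14:68977718-68977747 on the minus strand.
TPM4 promoter: aatcctaggtCCAAATAAGGcgagggctgc
ACTN1 promoter: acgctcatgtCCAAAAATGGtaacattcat
A match is a description of the letters and not a measured binding site, and a window without a match says nothing of SRF beyond that window.

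The transcripts were also searched on the sense strand for the letters that can pair with the 5′ end of the antisense strand of the NEAT1_2 siRNA, since pairing of this stretch with other transcripts is a known property of siRNAs. The heptamer GAGGAAT is complementary to antisense bases 2 to 8, and the overlapping AGGAATA is shifted by 1 base. In the longest protein-coding transcript of each member in GENCODE 29 (GRCh38), GAGGAAT was found in the coding sequence of TPM4, TPM2 and CALD1, against 16.2% of 12581 tested genes with such a transcript. AGGAATA was found in the 3′ UTR of TPM4 and of TPM1, against 14.5% of those genes. The matches are printed below with the heptamer in capitals.
TPM4 coding, bases 526 to 532 of 2666: tgagagtgagaGAGGAATgaaggtgatag
TPM2 coding, bases 678 to 684 of 1392: tgagagcgagaGAGGAATgaaggtcatcg
CALD1 coding, bases 287 to 293 of 4281: atcgcctaccaGAGGAATgacgatgatga
TPM4 3′ UTR, bases 2068 to 2074 of 2666: acccactcagcAGGAATAtggtggagttc
TPM1 3′ UTR, bases 2192 to 2198 of 3957: ttggagcccgtAGGAATAttgaagaagtt
Within the tropomyosin coding sequences the TPM4 and TPM2 matches lie in closely similar stretches. The TPM4 coding match and its flanks run from exon 2 into exon 3 of 8 (spliced, within chr19:16082035-16086439, plus strand), and those of TPM2 from exon 3 into exon 4 of 9 (spliced, within chr9:35685535-35685658, minus strand). The CALD1 stretch lies at chr7:134928755-134928783 in exon 2 of 13, the TPM4 3′ UTR stretch at chr19:16102396-16102424 in exon 8 of 8, and the TPM1 stretch at chr15:63045950-63045978 in exon 2 of 2 of a TPM1 transcript with few exons, all on the plus strand. The same TPM1 transcript also holds GAGGAAT at bases 3 to 9, in its 5′ UTR. Of the 19 protein-coding transcripts of TPM1 only this one was searched, and 3493 of its 3957 bases are its 3′ UTR. Its matches therefore hold for this transcript alone, and the other TPM1 transcripts were not searched. TPM3, ACTN1, ACTN4, MYL9, TAGLN and CNN1 held neither heptamer in their longest coding transcript. Whether the siRNA acted on any of these transcripts was not tested.

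The total of expected counts per library was between 22798631 and 27066025, and 13109 genes had enough counts to be tested. To be called, a gene needed an adjusted p under 0.05 (edgeR's quasi-likelihood test, Benjamini-Hochberg over all genes tested) and a fold change of at least 2, and by this rule 0 genes were called in either direction, whereas 3165 (24.1%) had an unadjusted p under 0.05. Along the first principal component (55.1% of the variance) the libraries spread out, with si-NEAT1_2 replicate 2 (52.7) farthest from NC replicate 2 (-43.3) and the other 4 between -15.0 and 15.9. Results that move when these libraries are left out are therefore given with and without them. The thyroid transcription factor PAX8 was present (113 to 169 FPKM), whereas TSHR, SLC5A5 and NKX2-1 were at most 0.08 FPKM. The smooth muscle and fibroblast markers had a summed FPKM of 46.4 to 51.4 in NC and 41.2 to 45.0 in si-NEAT1_2, most of it from ACTA2 (18.5 to 23.9) and LUM (16.2 to 25.0), with MYH11, LMOD1 and DES at most 0.16. By counts scaled for library size, only LUM of the 8 such markers tested had every si-NEAT1_2 library below every NC library (adjusted p = 0.170). Of all genes tested, 14.1% were so ordered. The log2 fold changes of the 8 ran from -0.39 (LUM) to 0.32 (PDGFRB), with a median of -0.05. The part of these markers in the results was not tested. The skeletal muscle markers summed to at most 0.17.

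TPM4 (ENSG00000167460, chr19:16067021-16103005, plus strand) encodes a tropomyosin found mainly outside muscle, in stress fibres and other actin filaments. Its level, as FPKM, a read count scaled for gene length and library size, was 939, 1031 and 995 in the NC libraries, and 498, 424 and 429 in the si-NEAT1_2 libraries, each in the order of replicates 1, 2 and 3, which is kept below. As TMM-scaled CPM, a read count scaled for library size only, the level was 2299, 2464 and 2427 in NC and 1216, 1141 and 1077 in si-NEAT1_2. Every si-NEAT1_2 library was below every NC library on both scales. The gap between the groups was wide compared with the spread inside them, which is what a choice by p selects. In such bulk libraries, less of the RNA in every cell and fewer cells with much of it cannot be told apart.

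The mean CPM of TPM4 was 2397 ± 86.9 (SD, n = 3) in NC and 1145 ± 69.4 (SD, n = 3) in si-NEAT1_2, a level 2.09-fold lower. The fitted log2 fold change was -1.07 with a standard error of 0.130. These are the values the gene was chosen on. The standard deviation of log2 CPM was 0.0527 in NC and 0.0873 in si-NEAT1_2. The median over the 5654 genes of at least 5 log2 CPM, most of them less abundant, was 0.119 and 0.198. A small spread lowers p, so it is part of what TPM4 was chosen on. It was not particular to TPM4, since TPM1 had 0.0331 in NC and 0.121 in si-NEAT1_2, and TPM3 0.0191 and 0.0995.

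TPM4 was also among the most abundant transcripts. Only 51 genes, TPM4 counted, had an average level of at least its 10.8 log2 CPM, and the largest absolute log2 fold change among the others was 0.676. Of all genes tested, 121 had a log2 fold change as low as that of TPM4 or lower (1.32% were at or below -1), and 7 of those 121 had an average of at least 5 log2 CPM. TPM4 was chosen by p between these same groups, so its place in these rankings is a description.

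The difference of TPM4 was of the same size within each library code (the L number in the labels' library names) that held both groups, a log2 ratio of -1.10 in code 2 (2 NC, 1 si-NEAT1_2) and -1.09 in code 3 (1 and 1). Code 4 held si-NEAT1_2 replicate 1 alone. Without both libraries at the ends of the first principal component, the log2 fold change was -1.04. These are parts of the same 6 libraries that chose TPM4, so their like values are a description and no separate support. All TPM4 counts were whole numbers in the 6 libraries, and the protein-coding transcripts of the 4 tropomyosin genes shared 0 words of 50 bases, so no stretch of that length in 1 of them is found in another.

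**Figure D1:**
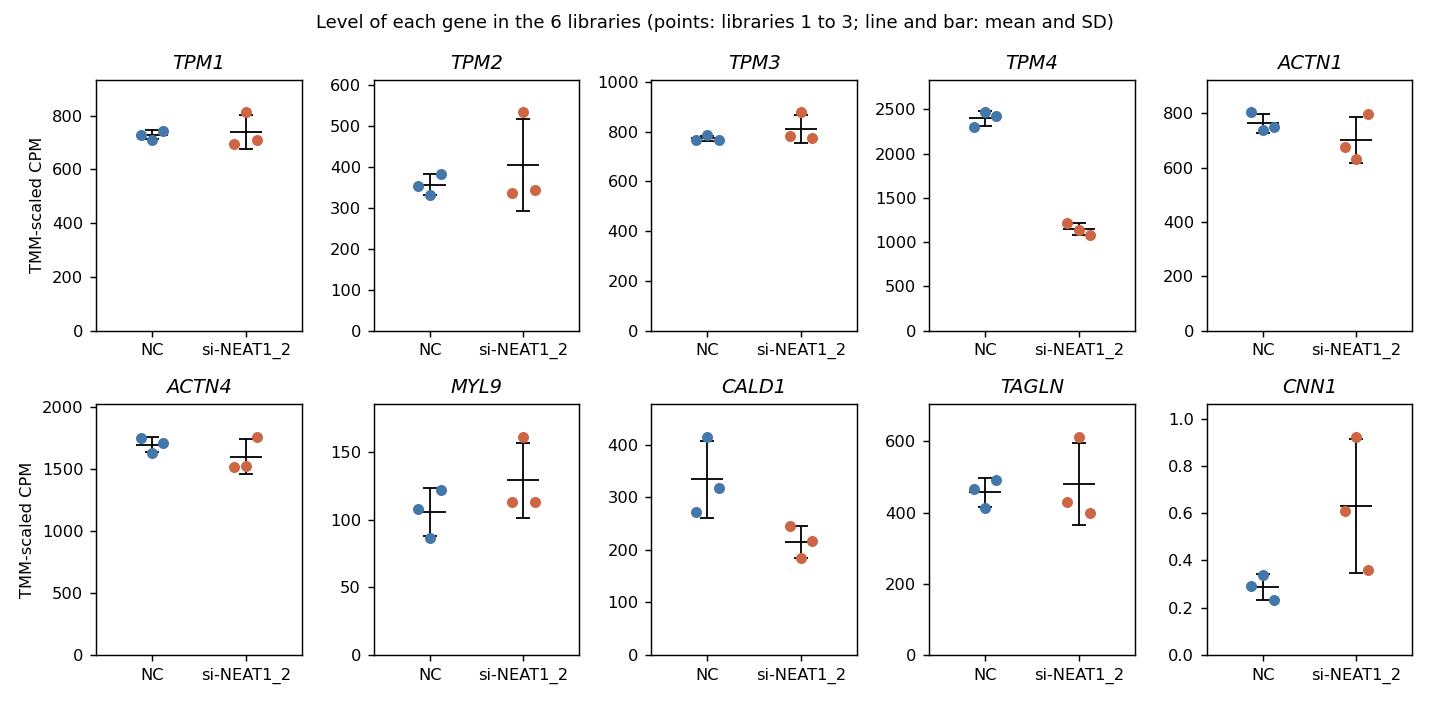
Level of the 10 genes as TMM-scaled CPM (vertical axis from 0), each point a library of NC (blue) or si-NEAT1_2 (orange), with the mean as a line and the SD as a bar. TPM4 lies between 2299 and 2464 CPM in NC and between 1077 and 1216 in si-NEAT1_2, and CALD1 and CNN1 are the other panels in which the groups do not overlap.

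TPM1, TPM2 and TPM3 did not pass the test, by which 0 of all genes tested were called. TPM1 (ENSG00000140416, chr15:63042632-63071915, plus strand), the source of many muscle and stress fibre isoforms, was at 509, 501 and 511 FPKM in NC and at 479, 499 and 487 in si-NEAT1_2. TPM3 (ENSG00000143549, chr1:154155304-154194648, minus strand), which encodes slow muscle and widely expressed cytoskeletal isoforms, was at 411, 421 and 395 FPKM in NC and at 408, 407 and 402 in si-NEAT1_2. TPM1 was slightly lower in every si-NEAT1_2 library by FPKM, whereas by CPM its groups overlapped, and the groups of TPM3 overlapped on both scales.

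TPM1 had a log2 fold change of 0.02 ± 0.125 (standard error, as in the brackets that follow) with an adjusted p = 0.922, and TPM3 one of 0.07 (0.122, adjusted p = 0.746). Both were of either sign over the 18 alternatives of scaling, filter, test and libraries left out, from -0.07 to 0.10 for TPM1 and from -0.01 to 0.20 for TPM3, so that no direction can be given.

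TPM2 (ENSG00000198467, chr9:35681992-35690121, minus strand) encodes β-tropomyosin, and had 343, 326 and 374 FPKM in NC and 328, 471 and 327 in si-NEAT1_2. A single library, si-NEAT1_2 replicate 2, stood above the other 5, and the remaining si-NEAT1_2 libraries fell within the NC range. The log2 fold change was 0.18 (0.178, adjusted p = 0.523), and it was -0.08 without that library.

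Because FPKM is scaled for length, the 4 tropomyosins can be added. Their summed level was 2253 ± 44.2 FPKM (SD, n = 3) in NC and 1719 ± 77.9 in si-NEAT1_2, whereas without TPM4 the sum was 1264 ± 15.7 and 1269 ± 93.1. By library, the sum without TPM4 was 1263, 1249 and 1281 in NC and 1214, 1376 and 1216 in si-NEAT1_2. Thus si-NEAT1_2 replicates 1 and 3 were below all NC libraries and replicate 2 was above them, so the like means rest on replicate 2. TPM4 made up 42.7, 45.2 and 43.7% of the sum in NC and 29.1, 23.6 and 26.1% in si-NEAT1_2. It was the largest of the 4 in every NC library, and in the si-NEAT1_2 libraries its share was close to those of the others.

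The mean share of TPM1 was 22.5% in NC and 28.4% in si-NEAT1_2, that of TPM2 15.4% and 21.7%, and that of TPM3 18.2% and 23.6%. These shares sum to a whole, so a lower share of TPM4 raises the others while their own levels overlap or differ little. TPM1 was the tropomyosin with the highest mean level in si-NEAT1_2 (488 ± 10.1 FPKM), next to TPM4 (450 ± 41.0), and the ranges of these 2 overlapped.

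**Figure D2:**
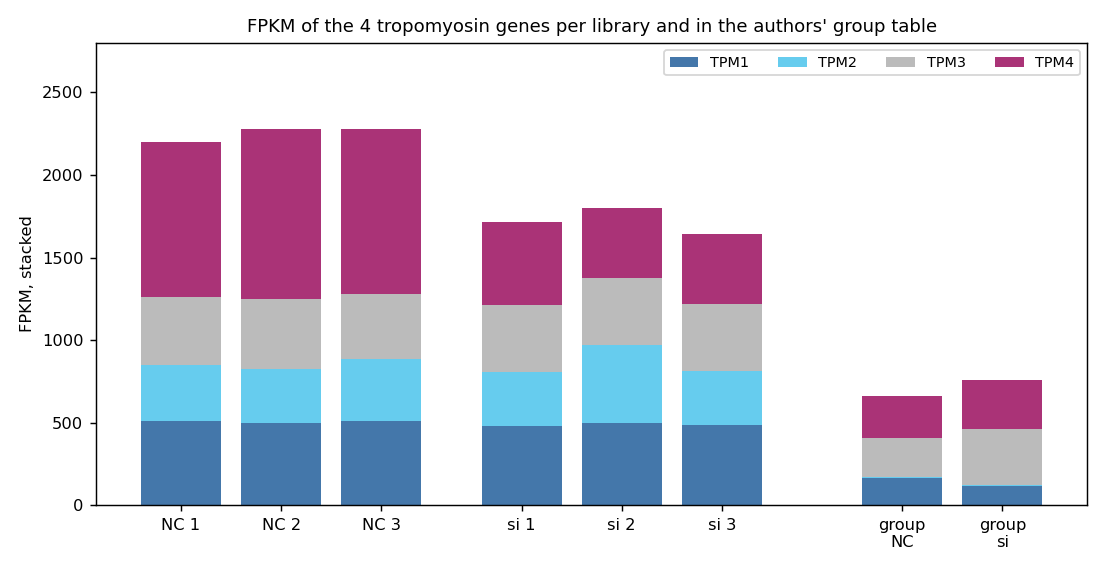
FPKM of the 4 tropomyosin genes stacked for each of the 6 libraries and for both columns of the group table (vertical axis, FPKM from 0). The TPM4 segment is 939 to 1031 in the NC libraries and 424 to 498 in the si-NEAT1_2 libraries, and in the group table TPM2 is too thin to see (3.98 and 3.39).

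Cross-linkers of the filament overlapped between the groups. ACTN1 (ENSG00000072110, chr14:68874143-68979440, minus strand) encodes α-actinin 1, which bundles actin in stress fibres and at focal adhesions, and had 231, 216 and 218 FPKM in NC and 192, 167 and 227 in si-NEAT1_2. ACTN4 (ENSG00000130402, chr19:38647649-38731583, plus strand) encodes α-actinin 4, its relative at the cell edge and in the nucleus, and had 411, 389 and 392 FPKM in NC and 362, 319 and 420 in si-NEAT1_2. In both genes si-NEAT1_2 replicates 1 and 2 were below the NC libraries and replicate 3 was not.

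The log2 fold change was -0.12 (0.133, adjusted p = 0.567) for ACTN1 and -0.09 (0.131, adjusted p = 0.696) for ACTN4. It was below 0 in all 18 alternatives for both genes, from -0.23 to -0.06 for ACTN1 and from -0.22 to -0.06 for ACTN4, and no adjusted p among these was under 0.220. The ACTN1 and ACTN4 transcripts shared 34 words of 50 bases, under 1% of either, and ACTN4 overlaps CAPN12 on the opposite strand, from which unstranded reads could not be told apart.

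MYL9 (ENSG00000101335, chr20:36541484-36551447, plus strand) encodes a regulatory light chain of myosin II, whose phosphorylation switches contraction on. Its level was 63.7, 51.4 and 73.7 FPKM in NC and 66.5, 87.0 and 66.1 in si-NEAT1_2. As for TPM2, si-NEAT1_2 replicate 2 was the highest of the 6 libraries and the other si-NEAT1_2 libraries lay among the NC values. The log2 fold change was 0.29 (0.176, adjusted p = 0.308), and without NC replicate 2 and si-NEAT1_2 replicate 2 it was -0.03.

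CALD1 (ENSG00000122786, chr7:134744252-134970728, plus strand) encodes caldesmon, which binds actin, tropomyosin and myosin and holds back their interaction. Set apart from TPM4, it was 1 of 8 tested members whose groups did not overlap in CPM and were lower in si-NEAT1_2, a share near the 14.1% of all genes tested that were so ordered. CALD1 had 271, 415 and 317 CPM in NC and 245, 184 and 217 in si-NEAT1_2. The lowest NC library was close to the highest si-NEAT1_2 library, and the libraries at the ends of the CALD1 values were NC replicate 2 and si-NEAT1_2 replicate 2, the same that lie at the ends of the first principal component.

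The mean of CALD1 was 335 ± 73.4 CPM (SD, n = 3) in NC and 215 ± 30.6 in si-NEAT1_2, with a log2 fold change of -0.64 (0.172). It did not pass the test, with an adjusted p = 0.170 and an unadjusted p = 0.00348 by edgeR's quasi-likelihood test. Without both of those libraries the log2 fold change was -0.35 (adjusted p = 0.334), and with the trends of GC content and transcript length removed in each library it was -0.38 (adjusted p = 0.179). DESeq2 gave an adjusted p = 0.0322 for it, and edgeR one of 0.0496 when si-NEAT1_2 replicate 1 was left out, at fold changes under 2. Within the library codes the log2 ratio was -0.99 in code 2, which holds both of those libraries, and -0.32 in code 3.

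TAGLN (ENSG00000149591, chr11:117199321-117204782, plus strand) encodes transgelin, an actin-bundling protein and a classical SRF target of smooth muscle. It was abundant in these thyroid carcinoma cells, with 458, 413 and 487 FPKM in NC and 429, 536 and 378 in si-NEAT1_2. The si-NEAT1_2 libraries held both the highest and the lowest of the 6 values, so that the groups overlapped, and the log2 fold change was 0.07 (0.170, adjusted p = 0.803). Leaving out si-NEAT1_2 replicate 2 gave -0.15. TAGLN overlaps PCSK7 on the opposite strand, and its counts were not whole in any library. ACTN4, with its overlap of CAPN12, had whole counts in 5 libraries. Why the TAGLN counts were not whole was not tested.

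CNN1 (ENSG00000130176, chr19:11538717-11550323, plus strand) encodes calponin 1, a smooth muscle protein that binds actin and tropomyosin. It had 8, 8 and 6 counts in NC and 15, 22 and 9 in si-NEAT1_2, and it was the member that did not pass the filter on low counts. Its FPKM was 0.18, 0.31 and 0.22 in NC and 0.69, 0.52 and 0.26 in si-NEAT1_2. The groups did not overlap in CPM and did overlap in FPKM, and in a fit without a filter the log2 fold change was 1.12 (0.713, adjusted p = 0.403).

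Set apart from TPM4, 0 of the 8 other tested members were called with edgeR (0% of all genes tested in either direction). With DESeq2, 0 were called, where 48 of all 13109 genes were called lower and 25 higher. At an unadjusted p under 0.05, 1 of these 8 (CALD1) was lower and 0 were higher in si-NEAT1_2, where 12.9% of all genes tested were lower and 11.2% higher.

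**Figure D3:**
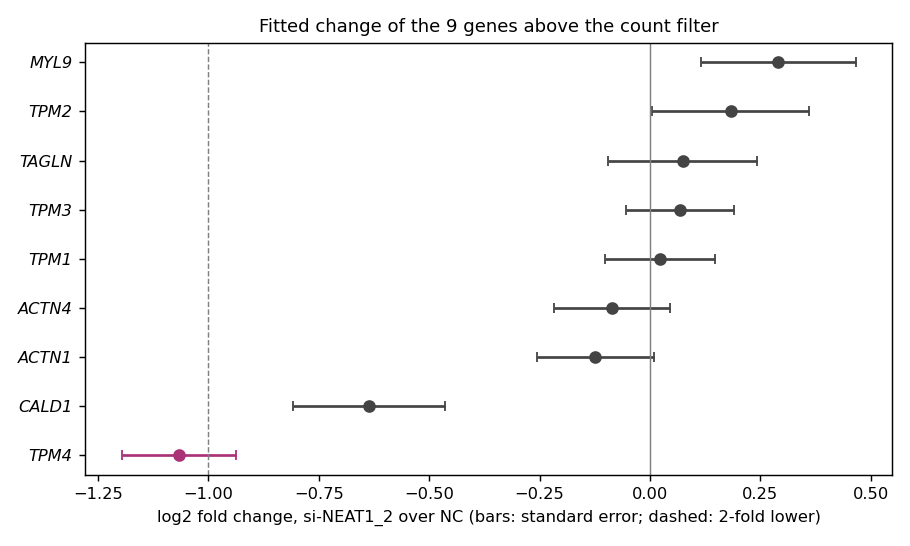
Fitted log2 fold change (si-NEAT1_2 over NC) of the 9 genes above the count filter, with the standard error as a bar. TPM4 (-1.07), on which the set was chosen, and CALD1 (-0.64) lie to the left of the other 7, which are between -0.12 and 0.29.

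The order of the levels, compared between genes by FPKM, differed between the groups at its top. In NC it ran from TPM4 (988 ± 46.4) over TPM1 (507 ± 5.23), TAGLN (453 ± 37.4), TPM3 (409 ± 13.2), ACTN4 (397 ± 11.96), TPM2 (348 ± 24.2), ACTN1 (221 ± 8.40), CALD1 (103 ± 25.6) and MYL9 (62.9 ± 11.2) to CNN1 (0.237 ± 0.0666). The ranges of TAGLN and TPM3 overlapped, as did those of TPM3 and ACTN4, and all other neighbours were separate. In si-NEAT1_2 the 6 genes from TPM1 down to ACTN4 formed a run of overlapping neighbours, 488 to 367 FPKM, in which TPM4 stood beside TAGLN (447 ± 80.3). ACTN1 (195 ± 30.3) was separate below them, and MYL9 (73.2 ± 11.9) and CALD1 (61.2 ± 16.2) had changed places with overlapping ranges.

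The group table gave other values for several members. How it was made and scaled is not given in the sources used here, so levels set across it and the libraries may not share a scale. It has no replicates, and no test was made on it. TPM4 had an FPKM of 256 in NC and 298 in si-NEAT1_2 there, a ratio of 1.16, so the difference of the libraries is not in this table. The authors' group values were 165 and 120 for TPM1, 236 and 339 for TPM3, 3.98 and 3.39 for TPM2, and 5.48 and 5.37 for TAGLN. Of the 9 members with an FPKM of at least 1 in either column, which leaves out CNN1, 0 were at least 2-fold lower and 0 at least 2-fold higher in si-NEAT1_2, where 14.3% and 3.55% of 11361 such genes were.

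Set against the group table, the mean FPKM of the NC libraries was 87.4 times as high for TPM2 and 82.6 times as high for TAGLN. Such a gap of at least 50-fold was found for 1.29% of 11679 genes with an FPKM of at least 1 in either. The ratio was 3.86 for TPM4, 3.07 for TPM1 and 2.06 for CALD1, which with TPM2 and TAGLN makes 5 members at least 2-fold higher in the libraries, where 19.7% of those genes were. It was 1.74 for TPM3, 1.65 for MYL9, 1.52 for ACTN4, 1.17 for ACTN1 and 0.703 for CNN1. In the table TPM2 made up 0.602% of the tropomyosin sum in NC and 0.446% in si-NEAT1_2, and TPM4 38.8% and 39.2%.

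**Figure D4:**
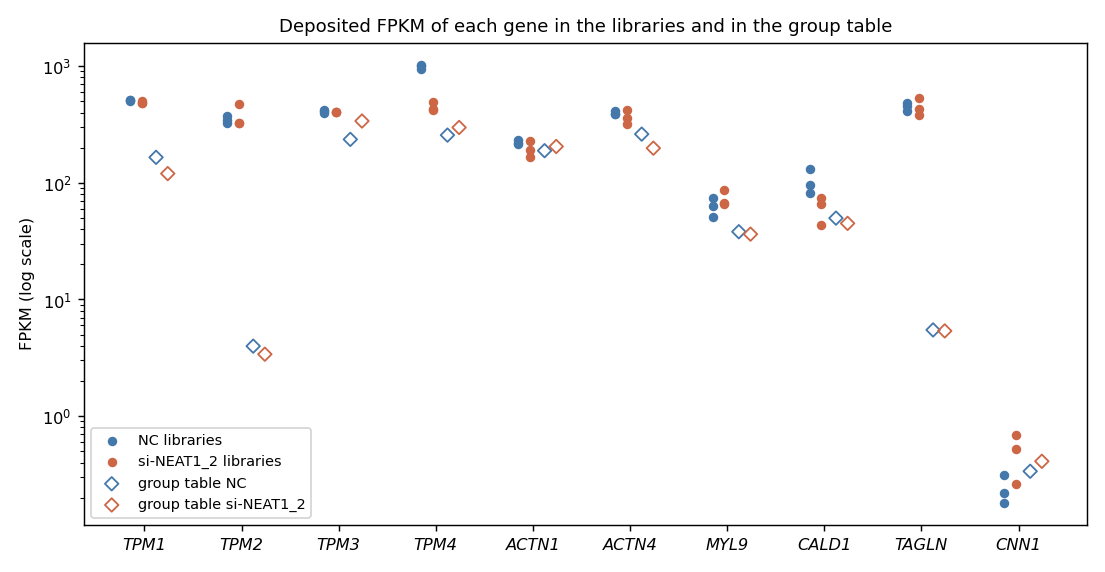
FPKM of each gene (vertical axis, log scale) in the NC (blue points) and si-NEAT1_2 libraries (orange points) and in the columns of the group table (open diamonds in the same colours). TPM2 and TAGLN lie between 326 and 536 FPKM in the libraries and between 3.39 and 5.48 in the group table, and the TPM4 diamonds (256 and 298) are below all 6 libraries.

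Other genes of actin filaments and their regulation were taken as a list of 42, of which 38 were tested. The list was chosen with earlier results of these data known, so its counts are a description. Of these, 0 were called (0% of all genes), and at an unadjusted p under 0.05, 9 were lower and 3 higher in si-NEAT1_2, where 12.9% and 11.2% of all genes tested were. With GC content and length trends removed in each library, 12 were lower (31.6%) and 0 higher, where 8.13% and 8.23% of 12581 genes were. How far the choice of the list enters this share was not tested. Groups that did not overlap were counted for 7 lower and 3 higher, where 14.1% and 15.4% of all genes tested were so ordered. The median log2 fold change of the list was 0.02, next to 0.01 over all genes tested. Actin itself was the most abundant of the list, with ACTB at 4176 to 5047 FPKM and ACTG1 at 5244 to 6530, and both groups overlapped.

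Of the genes with an average of at least 5 log2 CPM in both lists, the 3 lowest were ROCK2, ROCK1 and PPP1R12A, none of which passed the test. ROCK2, a kinase that acts on myosin light chain phosphatase, had 29.5, 61.5 and 39.9 CPM in NC and 31.6, 12.3 and 20.6 in si-NEAT1_2, so its groups overlapped (log2 fold change -1.02, standard error 0.326, adjusted p = 0.170). Its relative ROCK1 had 43.2, 74.4 and 43.0 CPM in NC and 39.5, 19.9 and 31.2 in si-NEAT1_2 (-0.82, 0.266, adjusted p = 0.170). PPP1R12A, the targeting subunit of that phosphatase, had 70.8, 99.3 and 72.4 CPM in NC and 66.3, 39.4 and 52.2 in si-NEAT1_2 (-0.62, 0.199, adjusted p = 0.170).

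In each of these 3 genes NC replicate 2 was the highest and si-NEAT1_2 replicate 2 the lowest library, as in CALD1. With GC content and length trends removed, the log2 fold change was -0.56 for ROCK2, -0.35 for ROCK1 and -0.22 for PPP1R12A, and without both replicates 2 it was -0.41, -0.29 and -0.27. By DESeq2, ROCK2 was called, where 48 genes were called lower and 25 higher over all 13109 tested. Without si-NEAT1_2 replicate 1, edgeR called ROCK1 and ROCK2, where 184 genes were called lower and 32 higher over all 13284 tested.

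The highest of these genes were PFN1 (profilin 1, which delivers actin monomers to growing filaments), PDLIM1 (an adaptor that binds α-actinin) and CFL1 (cofilin 1, which severs filaments). PFN1 had 1745, 1480 and 1816 CPM in NC and 1889, 2771 and 2214 in si-NEAT1_2, with a log2 fold change of 0.45 (0.167, adjusted p = 0.173). PDLIM1 had 76.6, 66.6 and 72.6 CPM in NC and 79.0, 103 and 100 in si-NEAT1_2 (0.39, 0.139, adjusted p = 0.172). In both, every si-NEAT1_2 library was above every NC library. CFL1 had 1664, 1433 and 1712 CPM in NC and 1684, 2526 and 2028 in si-NEAT1_2, with overlapping groups (0.38, 0.167, adjusted p = 0.201). With GC content and length trends removed, the log2 fold change was 0.02 for PFN1, 0.07 for PDLIM1 and -0.0046 for CFL1. Without both replicates 2 it was 0.20 for PFN1, 0.26 for PDLIM1 and 0.14 for CFL1.

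SRF with its co-activators and targets made a second list of 12 genes, chosen in the same way, of which 11 were tested and 0 called. At an unadjusted p under 0.05, 2 were lower and 0 higher in si-NEAT1_2 (12.9% and 11.2% of all genes tested), and the same counts were found with GC content and length trends removed. The groups of 3 did not overlap and were lower and those of 0 were higher (14.1% and 15.4% of all genes tested), and the median log2 fold change was 0.04. SRF itself had at least 15.4 FPKM in each of the 6 libraries, with overlapping groups, and myocardin (MYOCD), the smooth muscle co-activator, was at most 0.01 FPKM. The 2 lower genes were CCN2, a secreted matricellular protein (log2 fold change -0.38, adjusted p = 0.170), and MRTFB, a co-activator of SRF (-0.53, adjusted p = 0.185), both named after their values were seen.

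**Figure D5:**
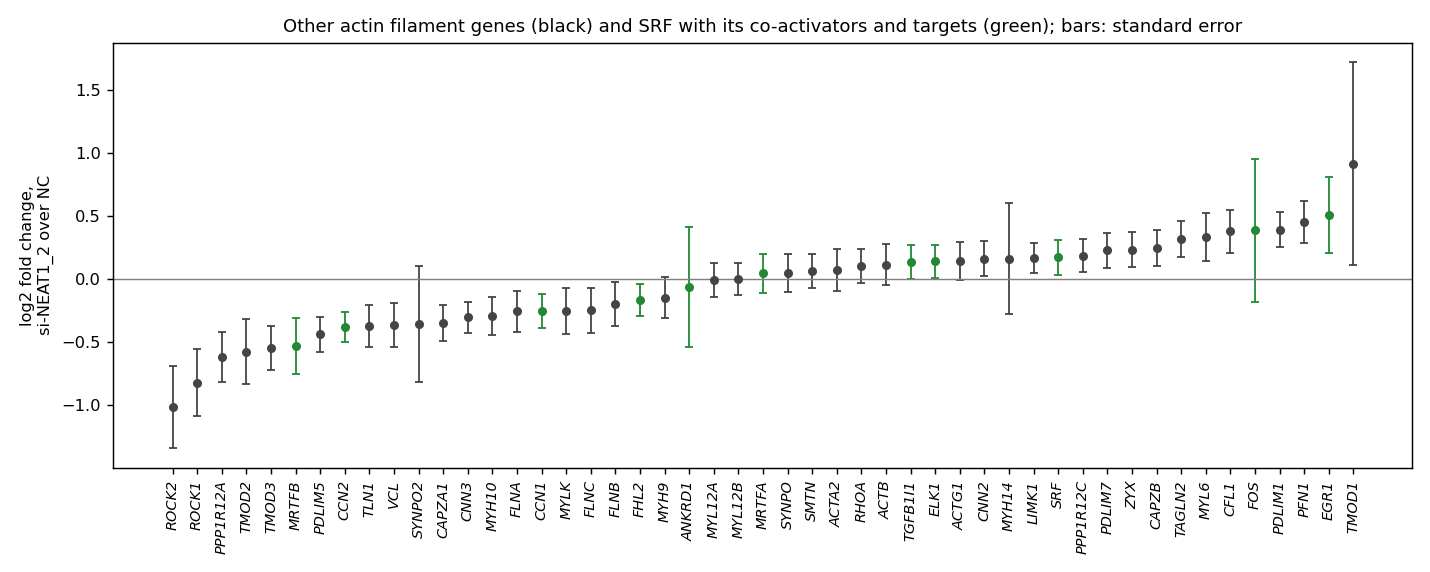
Fitted log2 fold change (si-NEAT1_2 over NC) of the tested genes of the actin filament list (black) and of the SRF list (green), sorted by value, with the standard error as a bar. The actin filament list runs from ROCK2 (-1.02) to TMOD1 (0.91), and 0 of the 49 genes shown were called.

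The genes whose pattern over the 6 libraries was most like that of TPM4 were sought among the 5653 other genes with an average of at least 5 log2 CPM, by the root mean square difference of log2 CPM centred on each gene's mean. They were SLCO1B3 (0.184), G3BP2 (0.190), TBC1D9 (0.239), OGFRL1 (0.241) and USO1 (0.245). Their log2 fold changes were -0.85, -0.78, -0.65, -0.71 and -0.70, in that order, all smaller in size than that of TPM4. The same difference between the groups that chose TPM4 enters this measure, and it is a description over 6 libraries.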

How the data were processed

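RNA of K1 cells transfected with NC or si-NEAT1_2 (3 libraries each) was enriched with oligo(dT) beads and depleted of rRNA. The authors' methods name TopHat2 for mapping and RSEM for quantification, whereas the submitters' processing notes name fastp 0.18.0, Bowtie2 2.2.8, HISAT2, StringTie 1.3.1 and the build GRCh38. Strandedness is not given in the sources used here. By the authors' methods, the expected counts deposited for each library would be estimates of RSEM, without normalization, but the processing notes do not name RSEM. The deposited FPKM values were scaled by the authors for gene length and library size. Both units are also in the group table, as 1 value per group, with expected counts summing to 17678761 and 19579897.

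After rounding, a filterByExpr filter and TMM scaling, edgeR 4.0.16 (R 4.3.3) was run on the counts (quasi-likelihood test) over all 13109 genes that passed. Library totals of 22798631 to 27066025 set the precision of the counts. DESeq2 1.42.0 and limma 3.58.1 (limma-trend on log2(FPKM + 1) and log2(FPKM + 0.1)) served as alternatives, as did a fit with spline trends of GC content and transcript length removed in each library (12581 genes with a coding transcript). The test script was checked on simulated data. Positions and transcripts are from GENCODE 29. All 10 members were named, with the 3 highest and 3 lowest listed genes of at least 5 log2 CPM and the 5 genes most like TPM4. The members and lists were chosen with earlier results of these data known. The authors' methods speak of 3 pairs, and the labels do not name pairs beyond the replicate number. Replicate numbers were not taken as pairs in the main fit. The correlations of same-numbered libraries' deviations were -0.282, -0.365 and -0.00797, which cannot show that the libraries were unpaired. A fit with a replicate block is among the alternatives.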

Additional observations from a re-analysis of the deposited data

How the results depend on the processing

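The 18 alternatives were the scaling, the filter, the test, FPKM values, library code, a replicate block, GC content and length trends, the omission of each library and, chosen after seeing the data, of both replicates 2. Over these the log2 fold change of TPM4 was -1.14 to -1.02 and that of CALD1 -0.78 to -0.35, and both were below 0 throughout, as were ACTN1 and ACTN4. Set apart from TPM4, which is given no test, 0 members were called as reported and in all 18 alternatives. Of the listed genes 0 were called as reported, and DESeq2 called 1, ROCK2. With libraries left out, 0 to 2 listed genes were called, which were ROCK1 and ROCK2 without si-NEAT1_2 replicate 1. The cause was not tested.

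Signs turned for 5 members near 0. TPM1 was -0.045 without TMM, -0.056 with limma-trend at either pseudocount and -0.060 without si-NEAT1_2 replicate 2, and with libraries left out it ran from -0.068 (both replicates 2) to 0.058. TPM2 was -0.20 with GC content and length trends removed, -0.21 with the block as well and -0.076 without si-NEAT1_2 replicate 2, and with libraries left out it ran from -0.12 (both replicates 2) to 0.29. TPM3 was -0.013 with limma-trend at either pseudocount, and with libraries left out it ran from -0.0011 (si-NEAT1_2 replicate 2) to 0.10. TAGLN was -0.028 with limma-trend at either pseudocount, -0.14 with trends removed, -0.16 with the block as well and -0.15 without si-NEAT1_2 replicate 2, and with libraries left out it ran from -0.21 (both replicates 2) to 0.19. MYL9 ran from -0.027 (both replicates 2) to 0.40. When FPKM was divided by its sum per library, the log2 ratio of mean FPKM fell for each of the 10 members. It went from -1.13 to -1.26 for TPM4 and from 0.11 to -0.03 for TPM2. Only for TPM1 (to -0.18) and TPM3 (to -0.14) did the shift exceed the SD of log2 FPKM in the si-NEAT1_2 libraries. The causes were not tested.

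With a replicate block, 0 members apart from TPM4 and 0 listed genes were called, TPM4 was at -1.07 and CALD1 at -0.62 (adjusted p = 0.401). With the block and GC content and length trends removed, TPM4 was at -1.12. The block changed none of these calls. Over all genes, edgeR called 0 lower and 0 higher as reported, 48 and 25 by DESeq2 (with 1273 adjusted p values missing), 9 and 9 without a filter, 184 and 32 without si-NEAT1_2 replicate 1, 2 and 1 without si-NEAT1_2 replicate 2, 4 and 6 without both replicates 2, 3 and 1 with trends removed, and 1 and 0 without TMM or with limma-trend on log2(FPKM + 0.1). At 6 to 22 counts per library, CNN1 was limited by depth.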
